A study of Mus musculus with 4 samples.

Results

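The midbrain and hindbrain patterning factors described here are 10 genes of 55602 in the deposited gene table, chosen by name. The choice was made with earlier results of these data known. They are the ligand gene Wnt1, the paired-box genes Pax2, Pax3, Pax5 and Pax7, the engrailed genes En1 and En2, the gastrulation brain homeobox gene Gbx2, and the LIM homeobox genes Lmx1a and Lmx1b. Their RNA was compared between wild-type and Zfp57-/- JB1 cells. JB1 is a male mouse embryonic stem cell (ESC) line from a JF1 mother and a C57BL/6 father, and the Zfp57-/- cells are a single line derived from it. Zfp57 encodes a KRAB zinc finger protein that keeps DNA methylation at imprinting control regions. Cells of both genotypes were grown for 12 days in DDM, a defined medium for neural differentiation, and both received 1 µM cyclopamine, an inhibitor of hedgehog signalling, from day 2 to day 10. Ribosomal RNA-depleted, strand-specific libraries were made from total RNA of the day 12 cells, with 2 libraries for each genotype. The libraries are described as biological duplicates, with no further account of how the cultures were separated, so the p-values below measure the spread between these libraries. With a single Zfp57-/- line, differences of line and of genotype cannot be told apart.

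In the embryo, the border between midbrain and hindbrain acts as an organiser, the isthmus, which signals to the tissue on either side through FGF8 and WNT1. Pax2, Pax5, En1 and En2 encode transcription factors of this region that maintain one another and the signals. Gbx2 encodes a homeodomain factor of the hindbrain side, which opposes Otx2 of the midbrain side, and it is also transcribed in naive ESCs. Lmx1a and Lmx1b encode LIM homeodomain factors of the roof plate and of the progenitors of midbrain dopaminergic neurons. Pax3 and Pax7 encode paired-domain factors of the dorsal neural tube, and are also used in neural crest and somites. Pax2 is also a gene of the developing kidney, and Pax5 of B lymphocytes.

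Promoter windows, from 250 bases before to 50 bases after an annotated start, were read from RefSeq sequences of GRCm38.p6 for 8 of the 10 genes. Pax3 and En2 had no entry. The windows were searched on both strands for the hexamers TGCCGC and GGCCGC, which ZFP57 recognizes when methylated, for the TCF/LEF motif ATCAAAG, through which Wnt signalling reaches its target genes, and for the homeodomain core TAATTA. No match in a member window overlapped another. Of the 10 windows of these genes, 6 held a ZFP57 hexamer, each once and each in a different gene. Among all 32851 windows of the table, 26.8% held a hexamer. Member windows ran from 54.7% to 71.7% GC, above the median of 52.7% over all windows, and 44.8% of the 12336 windows with GC in that range held a hexamer. Neither ATCAAAG nor TAATTA occurred in a member's window, against 3.73% and 5.29% of all windows. Both shares are over windows of any GC content, and at shares this low none among 10 windows is unremarkable. A match describes letters only, and whether the hexamers were methylated or bound was not measured in these files. The windows of Wnt1 (chr15:98789607-98789906, plus strand), Lmx1b (chr2:33641049-33641348, minus strand), Pax5 (chr4:44710645-44710944, minus strand) and Gbx2 (chr1:89931127-89931426, minus strand) are shown 5′ to 3′ because they belong to 3 genes that fell and the one that rose. Capitals mark the hexamer or its reverse complement.
Wnt1: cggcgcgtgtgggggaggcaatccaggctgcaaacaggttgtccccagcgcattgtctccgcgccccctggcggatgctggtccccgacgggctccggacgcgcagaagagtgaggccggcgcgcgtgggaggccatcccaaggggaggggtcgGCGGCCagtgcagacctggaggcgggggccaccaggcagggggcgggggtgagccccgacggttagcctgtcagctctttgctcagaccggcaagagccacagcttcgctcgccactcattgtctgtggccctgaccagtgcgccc
Lmx1b: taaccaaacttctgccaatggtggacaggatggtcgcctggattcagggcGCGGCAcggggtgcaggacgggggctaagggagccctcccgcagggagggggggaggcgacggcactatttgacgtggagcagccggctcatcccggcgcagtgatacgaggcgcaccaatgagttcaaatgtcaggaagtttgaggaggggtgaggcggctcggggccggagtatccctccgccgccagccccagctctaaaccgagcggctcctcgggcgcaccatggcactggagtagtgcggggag
Pax5: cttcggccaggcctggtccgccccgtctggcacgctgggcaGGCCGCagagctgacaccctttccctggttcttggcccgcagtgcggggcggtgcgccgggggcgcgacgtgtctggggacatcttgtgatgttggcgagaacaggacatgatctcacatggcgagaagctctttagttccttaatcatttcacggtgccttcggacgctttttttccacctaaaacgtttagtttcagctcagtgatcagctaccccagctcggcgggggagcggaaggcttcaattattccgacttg
Gbx2: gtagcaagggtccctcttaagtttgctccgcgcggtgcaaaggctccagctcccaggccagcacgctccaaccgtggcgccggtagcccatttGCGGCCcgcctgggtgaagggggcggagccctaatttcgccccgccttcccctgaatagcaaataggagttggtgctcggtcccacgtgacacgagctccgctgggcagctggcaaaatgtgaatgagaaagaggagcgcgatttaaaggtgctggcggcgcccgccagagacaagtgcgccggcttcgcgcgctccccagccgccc
In Lmx1b the hexamer was TGCCGC and in the other 3 it was GGCCGC. Its first base in the window lay 96 bases before the start in Wnt1, 200 in Lmx1b, 209 in Pax5 and 157 in Gbx2. En1 had GGCCGC 170 bases before its start. Of the 3 Pax2 windows only the one at chr19:44756656-44756955 held a hexamer, which began at base 39 of the transcript. The windows of Pax7 and Lmx1a held none.

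Bulk counts per library, that is, fragments assigned to genes, ranged from 7663520 to 10337082, and the allele-specific table held between 36.1% and 37.0% as many. Zfp57 itself had 392 and 249 counts in wild-type libraries against 158 and 144 in Zfp57-/- libraries (log2 fold change -1.19, edgeR adjusted p = 0.0225). The knockout deleted part of the gene and counts over the whole gene include what lies outside it, so a remainder does not check the label. Of the 9 neuronal and neural progenitor markers, 8 were lower in Zfp57-/- cells (median log2 fold change -4.12), and their summed level was 1949 and 2313 CPM (counts per 1000000 fragments of the scaled library) in wild-type against 406 and 360 in Zfp57-/- libraries. Map2, Tubb3 and Nes fell (log2 fold change -4.23, -2.95 and -0.91, edgeR adjusted p = 4.04e-06, 0.000162 and 0.00524), and Stmn2 had -0.56 (edgeR adjusted p = 0.144). Of 12 naive pluripotency markers, 11 were higher (median 7.18), with a summed level of 84.0 and 159 CPM against 1595 and 1520. Tfcp2l1, Pou5f1 and Tdgf1 rose (log2 fold change 6.02, 9.41 and 10.96, edgeR adjusted p = 1.79e-06, 1.71e-06 and 1.71e-06), and Klf4 had 0.28 (edgeR adjusted p = 0.564). Nanog, Dppa3 and Prdm14 were at 0 counts in both wild-type libraries. Beside the wild-type libraries, the Zfp57-/- libraries thus held more RNA of the naive pluripotency list and less of the neural one. Nes still stood at 190 and 195 CPM in Zfp57-/- libraries, against 356 and 366 CPM in wild-type. No undifferentiated cells are among these libraries, so change from the ESC state was not measured here. The paper reported that Pou5f1 and Nanog fell, and Nestin rose, during differentiation in both genotypes. The part of these genotype differences in the results below was not tested.

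Between the genotypes, 8 of the 10 patterning factors were lower in Zfp57-/- cells, 1 was higher, and Lmx1a did not pass the test. The test was edgeR's quasi-likelihood test on the counts, with a Benjamini-Hochberg adjusted p below 0.05 over all genes with more than 8 counts in the 4 libraries together, and all 10 genes entered it. By the same test 27.6% of the 19995 genes were called (5522 genes), 14.6% as lower and 13% as higher. About as many genes thus rose as fell in this background. The 10 factors were chosen with earlier results of these data known. Setting their 8 lower beside the background is therefore a description and not a test. The median log2 fold change, Zfp57-/- minus wild-type, was -3.65 over the 10 genes and -0.01 over all genes tested. In 9 of the 10 genes, Lmx1a included, both Zfp57-/- libraries lay below both wild-type libraries, a pattern shown by 32.6% of all genes tested, and in Gbx2 both lay above, as in 33.7%. The summed level of the 10 genes was 235 and 284 CPM in the wild-type and 41.0 and 49.9 CPM in the Zfp57-/- libraries. In bulk RNA, fewer cells that express a gene and less RNA of it per cell cannot be told apart.

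Scaling and single libraries moved the background. With Actb as the scale the median of all genes shifted to -0.68 and 3480 genes were called, 486 higher and 2994 lower, against 2607 higher and 2915 lower with the usual scaling. On that scale 8 patterning factors were lower and none higher, with a median of -4.22. Without wild-type replicate 2, 10005 genes were called, and all 10 patterning factors were among them. Without Zfp57-/- replicate 1 or 2, 2756 and 2900 genes were called, and in each case 6 patterning factors, the losses being Pax2, En1 and Gbx2. An exact permutation test of 2 against 2 libraries cannot give a p below 0.333 and was not used.

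**Figure D1:**
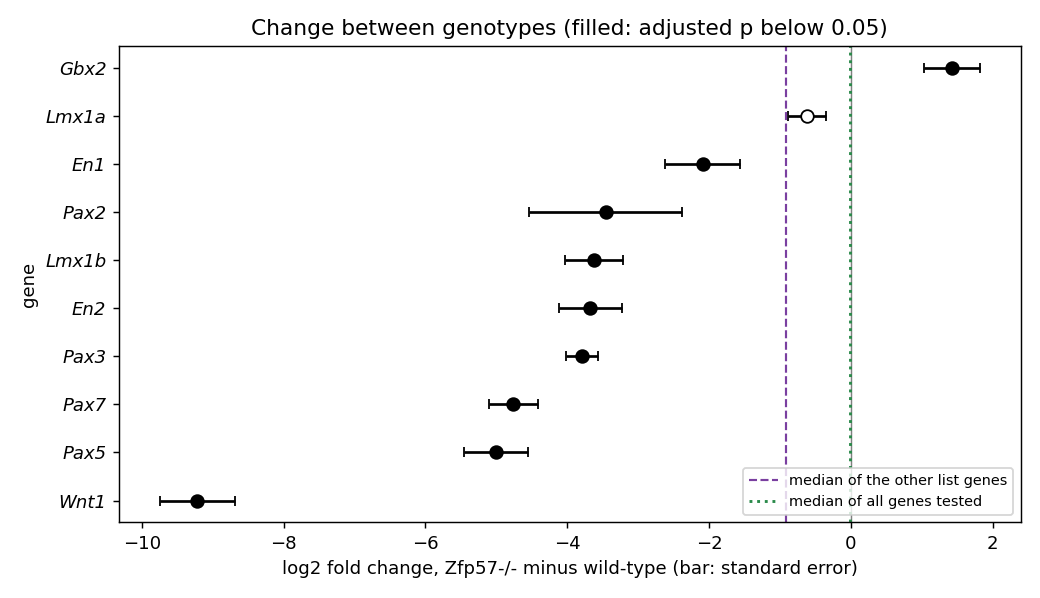
The log2 fold change of each patterning factor, Zfp57-/- minus wild-type, with its standard error (bar). Filled points had an edgeR adjusted p below 0.05, and the open point (Lmx1a) did not. The dashed line is the median of the other genes of all 15 lists, pluripotency and neuronal lists included (-0.92). The dotted line is that of all genes tested (-0.01). Gbx2 lies at 1.43, Lmx1a at -0.62, and the others between -2.09 and -9.22.

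The ligand showed the largest difference of the 10. Wnt1 (ENSMUSG00000022997.9, chr15:98789857-98793837, plus strand) encodes the secreted WNT1 of the isthmus and the dorsal midline. It had 341 and 375 counts in wild-type replicates 1 and 2, and 0 and 1 in the Zfp57-/- replicates. In CPM this was 39.0 ± 4.54 (SD, n = 2) in wild-type cells, and 1 fragment among both Zfp57-/- libraries. From the summed counts the level was 737 times higher in wild-type cells, with a 95% counting interval of 132 to 29158, which covers counting error only. The fitted log2 fold change was -9.22 (SE 0.53, edgeR adjusted p = 3.91e-06), a value that depends on the prior count because the Zfp57-/- level rests on 1 fragment. Wnt1 passed the threshold in each alternative analysis.

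Pax2 and Pax5 are paired-box genes of the same subfamily, and Pax2 is switched on first at the future boundary. Pax5 (ENSMUSG00000014030.15, chr4:44524757-44710487, minus strand) had 114 and 246 counts in wild-type libraries against 5 and 6 in Zfp57-/- libraries. It stood at 18.8 ± 6.62 CPM in wild-type and 0.575 ± 0.0542 CPM in Zfp57-/- cells (SD, n = 2 each), 32.7-fold lower (log2 fold change -5.00, SE 0.45, edgeR adjusted p = 4.35e-05). The lower of the wild-type libraries was still far above the higher Zfp57-/- library. Pax2 (ENSMUSG00000004231.15, chr19:44756045-44837871, plus strand) was near the limit of detection, with 14 and 9 counts in wild-type libraries against 1 and 1 in Zfp57-/- libraries. Its level was 11.8 times higher in wild-type cells by summed counts, with a counting interval of 2.93 to 104. The fitted log2 fold change was -3.46 (SE 1.08, edgeR adjusted p = 0.0332). That call did not hold with DESeq2 (adjusted p = 0.0880), which called 25.6% of the genes it tested, nor without wild-type replicate 1 (edgeR adjusted p = 0.0806), without Zfp57-/- replicate 1 (0.174) or without Zfp57-/- replicate 2 (0.176).

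The engrailed genes encode homeodomain repressors of midbrain and anterior hindbrain. En2 (ENSMUSG00000039095.8, chr5:28165694-28172166, plus strand) had 142 and 430 counts in wild-type libraries against 18 and 26 in Zfp57-/- libraries. The wild-type libraries themselves differed 2.33-fold in CPM. At 29.3 ± 16.6 CPM against 2.29 ± 0.513 CPM (SD, n = 2 each), En2 was 12.8-fold lower in Zfp57-/- cells (log2 fold change -3.67, SE 0.44, edgeR adjusted p = 0.000271). En1 (ENSMUSG00000058665.8, chr1:120602418-120607992, plus strand) had 33 and 79 counts in wild-type libraries against 14 and 12 in Zfp57-/- libraries. Its level was 5.81 ± 2.44 against 1.36 ± 0.195 CPM (SD, n = 2 each), 4.26-fold lower (log2 fold change -2.09, SE 0.53, edgeR adjusted p = 0.0161). The fitted change of En1 was the smaller of the pair, and its call was lost without Zfp57-/- replicate 1 or 2 (edgeR adjusted p = 0.0872 and 0.139). The difference between the changes of En1 and En2 was not tested.

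Pax3 and Pax7 are the paired-box genes of the dorsal neural tube. Pax3 (ENSMUSG00000004872.15, chr1:78101267-78197134, minus strand) had the most counts of the 10 genes in wild-type cells, 593 and 884, against 55 and 54 in Zfp57-/- libraries. Its level fell 13.8-fold, from 78.9 ± 7.75 to 5.71 ± 0.272 CPM (SD, n = 2 each; log2 fold change -3.79, SE 0.23, edgeR adjusted p = 5.11e-06). Replicates of each genotype lay close together, and the change was large beside their spread. Pax7 (ENSMUSG00000028736.13, chr4:139737062-139833528, minus strand) had 202 and 250 counts in wild-type libraries against 7 and 10 in Zfp57-/- libraries. It fell 27.6-fold, from 24.4 ± 0.812 to 0.887 ± 0.191 CPM (SD, n = 2 each; log2 fold change -4.76, SE 0.35, edgeR adjusted p = 1.38e-05). Both genes passed the threshold in each alternative analysis, as did Pax5, En2 and Lmx1b.

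The LIM homeobox genes, close relatives of each other, had unlike values. Lmx1b (ENSMUSG00000038765.13, chr2:33560965-33640511, minus strand) had 177 and 364 counts in wild-type libraries against 13 and 31 in Zfp57-/- libraries. It was 12.4-fold lower, at 28.3 ± 9.07 against 2.28 ± 1.25 CPM (SD, n = 2 each; log2 fold change -3.62, SE 0.41, edgeR adjusted p = 0.000175). Lmx1a (ENSMUSG00000026686.14, chr1:167689237-167848741, plus strand) had 258 and 268 counts in wild-type libraries against 137 and 222 in Zfp57-/- libraries. Its mean was 28.8 ± 4.50 CPM in wild-type and 18.7 ± 5.65 CPM in Zfp57-/- cells (SD, n = 2 each). Although the libraries of the genotypes did not overlap, the gap was small beside their spread and the test was not passed (log2 fold change -0.62, SE 0.27, edgeR adjusted p = 0.113). Without wild-type replicate 2 it was passed (log2 fold change -0.76, edgeR adjusted p = 0.000463), on a Zfp57-/- spread alone. The difference between the changes of Lmx1a and Lmx1b was not tested.

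Gbx2 was the exception in direction. Gbx2 (ENSMUSG00000034486.8, chr1:89927956-89931179, minus strand) had 25 and 71 counts in wild-type libraries against 132 and 125 in Zfp57-/- libraries. Its level rose 2.73-fold, from 4.94 ± 2.60 to 13.5 ± 0.984 CPM (SD, n = 2 each; log2 fold change 1.43, SE 0.39, edgeR adjusted p = 0.0224). The wild-type libraries differed 2.19-fold from each other, replicate 2 being the higher. The call was lost without Zfp57-/- replicate 1 (edgeR adjusted p = 0.133) or 2 (0.0742), and with Actb as the scale (log2 fold change 0.95, adjusted p = 0.384), while the sign stayed positive. Because Gbx2 is transcribed in naive ESCs as well as in the hindbrain, the naive pluripotency values given above stand beside it, and their part in its rise was not tested. D130058E05Rik, a transcript that overlaps Gbx2 on the opposite strand and was counted apart from it, had 19 and 32 counts in wild-type libraries against 14 and 19 in Zfp57-/- libraries (log2 fold change -0.65, edgeR adjusted p = 0.420).

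To compare genes with each other, CPM was divided by the exonic length of each gene in kb. In wild-type cells Wnt1 was highest at 16.4 CPM per kb, followed by Pax3 at 12.8, and the libraries of neighbouring genes did not overlap at either step. Lmx1a (8.47), En2 (8.28) and Lmx1b (5.81) came next. Lmx1a lay above Lmx1b in both libraries, and En2 could not be placed between them, since its wild-type libraries ran from 4.97 to 11.6 CPM per kb. Pax7 stood apart at 4.17 CPM per kb. Gbx2 (2.27), En1 (2.22) and Pax5 (2.12) overlapped one another, and Pax2 was lowest at 0.240 CPM per kb. The order differed in Zfp57-/- cells. There Gbx2 (6.19) and Lmx1a (5.51) overlapped at the top, above Pax3 at 0.923 CPM per kb. En2 (0.648), En1 (0.520) and Lmx1b (0.468) overlapped, Pax7 followed at 0.151 and Pax5 at 0.0649, and Wnt1 (0.0215) and Pax2 (0.0194) were last and overlapped. Wnt1, the highest in wild-type cells, was thus among the lowest of the 10 in Zfp57-/- cells, and Gbx2 and Lmx1a were the highest there.

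**Figure D2:**
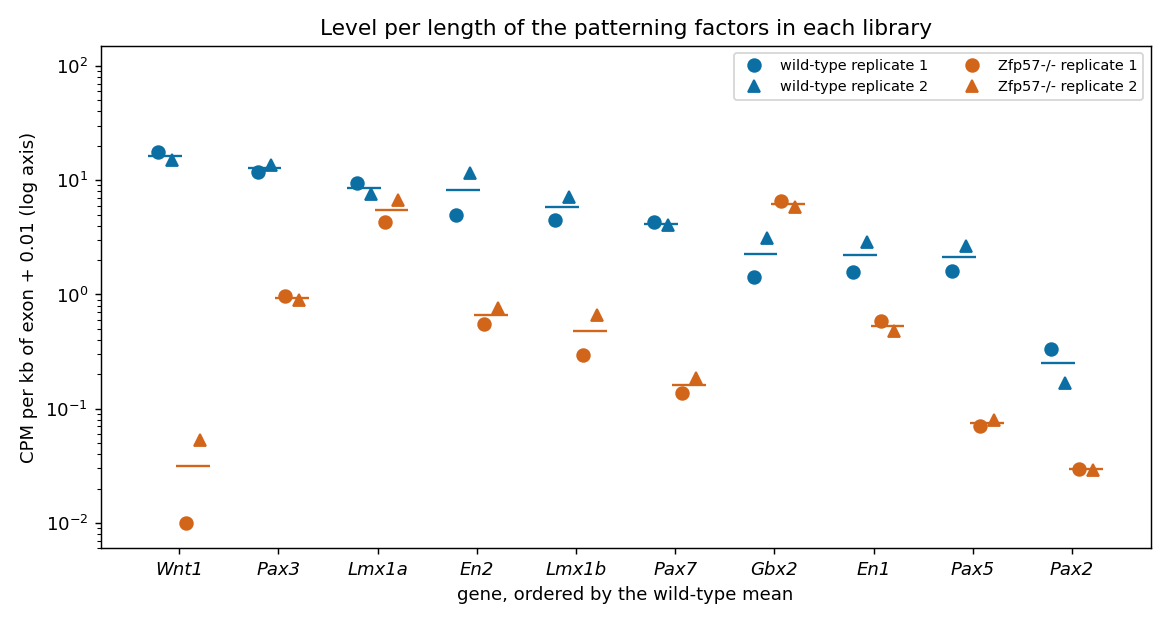
Level per length of the 10 genes in each library, in CPM per kb of exon plus 0.01 on a log axis, ordered by the wild-type mean. Circles are replicate 1, triangles replicate 2, and short lines the means of the 2 libraries. The Zfp57-/- points lie below the wild-type points for each gene except Gbx2, and closest to them for Lmx1a.

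Among 165 other genes from fixed lists, described below, the one whose profile over the 4 libraries was most like each factor other than Pax7 was found by the Euclidean distance between centred log2(CPM + 0.5) values. This is a description over 4 libraries. Wnt1 lay nearest to Nhlh2, a gene of early neurons, at a distance of 0.231. Lmx1a lay nearest to Gata2 (0.240), Gbx2 to Dusp6 (0.279), Pax3 to Rspo1 (0.349) and Pax2 to Wnt9a (0.374). Pax5 and Nr4a2 (0.386), En2 and Pou4f1 (0.411), En1 and Hoxa3 (0.431) and Lmx1b and Msx1 (0.506) were the remaining pairs. The Zfp57-/- levels of Pax2 and Wnt1 lay below the added 0.5 CPM, which damps their change in this distance. The fitted log2 fold change was -3.46 for Pax2 against -1.38 for Wnt9a, and -9.22 for Wnt1 against -6.63 for Nhlh2.

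Other genes were counted in 15 lists, the 10 factors left out. The lists hold genes of the same brain regions and gene families, and also genes of pluripotent cells, neurons and other tissues. Over their 179 genes together, 165 were tested, 66 were lower and 34 higher in Zfp57-/- cells. The median log2 fold change was -0.92, a value that mixes these unlike lists. The isthmic organiser signalling list did not go the way of Wnt1. Of its 14 genes, 10 were higher, 2 lower, and the median was 1.44. Dusp6, an FGF-induced phosphatase that limits ERK signalling, stood at 56.5 and 93.3 CPM in wild-type and 186 and 200 CPM in Zfp57-/- libraries (log2 fold change 1.36, edgeR adjusted p = 0.00307). Il17rd, another inhibitor of FGF signalling, had a log2 fold change of 1.51 (edgeR adjusted p = 0.000967), and Etv5, an ETS factor induced by FGF, of 2.04 (edgeR adjusted p = 0.00105). The ligand genes themselves, named after their values were seen, were low. Fgf8 had 9 and 23 counts in wild-type libraries against 52 and 63 in Zfp57-/- libraries (edgeR adjusted p = 0.0229), and Fgf17 had 6 and 15 against 70 and 79 (edgeR adjusted p = 0.00249). Fgf18 lay the other way, at 21 and 38 against 12 and 10 counts, without passing the test (log2 fold change -1.43, edgeR adjusted p = 0.0940). Cnpy1, a boundary gene that promotes FGF signalling, fell (log2 fold change -1.53, edgeR adjusted p = 0.00297), as did Sp8 (-1.26, edgeR adjusted p = 0.0134), a zinc finger factor gene. Sp5, a Wnt target, had a log2 fold change of -0.58 (edgeR adjusted p = 0.471). With Actb as the scale 3 genes of the list were higher and 2 lower, with a median of 0.86. FGF signalling and its inhibitors are also active in ESCs, and the part of the pluripotency values in this list was not tested.

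Genes of both sides of the boundary were lower more often than higher. Of 14 midbrain and mes-diencephalic genes tested, 9 were lower and 1 higher (median -2.30). Meis2 stood at 307 and 241 CPM in wild-type and 63.7 and 56.1 CPM in Zfp57-/- libraries (log2 fold change -2.19, edgeR adjusted p = 6.98e-05). The Iroquois homeobox genes Irx2 and Irx1 had log2 fold changes of -3.54 and -2.96 (edgeR adjusted p = 8e-06 and 3.68e-05). Otx2, the midbrain-side opponent of Gbx2, had 743 and 568 counts in wild-type libraries against 447 and 517 in Zfp57-/- libraries, a log2 fold change of -0.53 that did not pass the test (edgeR adjusted p = 0.149). Gata3, at under 5 CPM in every library, rose (log2 fold change 1.57, edgeR adjusted p = 0.0495), a call that was lost with DESeq2, with its size factors, with upper-quartile or Actb scaling, and without Zfp57-/- replicate 1 or 2. Of 16 hindbrain segment genes, 11 were lower and none higher (median -1.50). Meis1 and Irx3 fell (log2 fold change -1.16 and -1.38, edgeR adjusted p = 0.00152 and 0.00364). Atoh1, the proneural gene of the rhombic lip, had 270 and 423 counts in wild-type libraries against 0 and 2 in Zfp57-/- libraries (edgeR adjusted p = 5.79e-06). Hoxb2 had a log2 fold change of -1.09 (edgeR adjusted p = 0.0619). Without Zfp57-/- replicate 2, 7 of the 16 hindbrain genes were called, all lower.

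Of 17 roof plate and dorsal neural tube genes tested, the setting of Wnt1, Lmx1a, Pax3 and Pax7, 15 were lower and none higher (median -3.67). Zic1, a zinc finger factor of the dorsal neural tube, stood at 218 and 296 CPM in wild-type and 2.15 and 1.43 CPM in Zfp57-/- libraries (log2 fold change -7.16, edgeR adjusted p = 1.71e-06). Zic2 and Zic5 had log2 fold changes of -1.45 and -1.84 (edgeR adjusted p = 0.000492 and 0.000199). In the midbrain dopaminergic list 4 of 10 genes tested were lower and 1 higher (median -1.86). Nr4a2, the nuclear receptor gene of these neurons, had 119 and 190 counts in wild-type libraries against 4 and 7 in Zfp57-/- libraries (log2 fold change -4.81, edgeR adjusted p = 4.27e-05). Lmo3 and Corin fell as well (-4.45 and -2.86, edgeR adjusted p = 0.000438 and 0.00965). Ddc, which is not restricted to neurons, rose (1.10, edgeR adjusted p = 0.0166). The paper places Ddc in the imprinted Grb10 domain and also lists it as up-regulated. The part of either trait in its rise was not tested. Foxa2, a factor of floor plate and endoderm, had a log2 fold change of 0.75 (edgeR adjusted p = 0.146). Without wild-type replicate 2, 8 genes of this list were called, 5 lower and 3 higher.

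Of 16 forebrain genes tested, the region that the protocol aims at, 7 were lower and 1 higher (median -2.60). Nr2f1, Lhx9 and Pax6 had log2 fold changes of -4.51, -5.96 and -3.03 (edgeR adjusted p = 9.86e-06, 3.62e-06 and 6.27e-05). Hesx1, a homeobox gene of anterior neural plate that is also transcribed in ESCs, had 0 counts in both wild-type and 39 in each Zfp57-/- library (edgeR adjusted p = 0.000964). Emx2 had a log2 fold change of -1.53 (edgeR adjusted p = 0.113). Within the gene families of the patterning factors, 2 of 4 other Pax genes tested were lower, Pax6 and Pax8 (log2 fold change -2.57, edgeR adjusted p = 0.0497), and Pax9 had -0.42 (edgeR adjusted p = 0.459). Of 17 other Wnt ligand genes tested, 5 were lower and 1 higher (median -0.92). Wnt3, Wnt7b and Wnt9a fell, with log2 fold changes of -1.97, -0.92 and -1.38 (edgeR adjusted p = 0.000979, 0.0349 and 0.00549). Wnt8a rose from 6 and 7 counts to 59 and 67 (log2 fold change 3.21, edgeR adjusted p = 0.00153), and Wnt5a did not pass the test (-0.06, edgeR adjusted p = 0.870). Pax8 had 18 and 17 counts in wild-type libraries against 1 and 5 in Zfp57-/- libraries, and 1 of these 4 Pax genes was called with DESeq2, without Zfp57-/- replicate 1 and without replicate 2. Without wild-type replicate 2, 12 of the 17 Wnt genes were called, 10 lower and 2 higher.

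Lists for the other tissues that use the patterning factors differed in the direction of the genes called. Of 11 neural crest genes, which bear on Pax3 and Pax7, 5 were lower and 3 higher (median -0.28), with a summed level of 266 and 303 CPM in wild-type and 172 and 181 CPM in Zfp57-/- libraries. Tfap2b and Ednrb fell (log2 fold change -4.75 and -5.64, edgeR adjusted p = 1.33e-05 and 1.7e-05), as did Ngfr (-1.06, edgeR adjusted p = 0.0151). Ets1, Erbb3 and Foxd3, the last also a gene of pluripotent cells, rose (0.70, 1.28 and 3.56, edgeR adjusted p = 0.0355, 0.00273 and 0.000467). Of 9 somite and muscle genes tested, 3 were higher and none lower (median 1.44), at a summed 10.6 and 22.1 CPM in wild-type and 54.0 and 54.0 CPM in Zfp57-/- libraries. They were Meox1, Tcf15 and Myog (log2 fold change 1.27, 2.88 and 3.95, edgeR adjusted p = 0.0498, 0.000648 and 0.000807). The intermediate mesoderm and kidney list, which bears on Pax2, had 2 lower and 1 higher of 9 genes tested (median -0.04). Ret fell (log2 fold change -2.44, edgeR adjusted p = 0.000808) and Wt1 rose (1.63, edgeR adjusted p = 0.0479). For Pax5, 1 of 5 B lineage genes tested was lower (median 0.76), Ebf1, which neurons also transcribe (-3.47, edgeR adjusted p = 6.08e-06), and Cd79b, a B cell receptor gene, had 0 counts in each of the 4 libraries. Of 9 endoderm genes 2 were higher (median 0.66), Cubn and Hnf4a (2.32 and 1.42, edgeR adjusted p = 0.000226 and 0.0156), with the list at 359 and 529 CPM in wild-type and 568 and 822 CPM in Zfp57-/- libraries. Of the genes not called, Sox9, Foxc2, Eya1, Ikzf1 and Gata4 were the most abundant of their lists, with log2 fold changes of -0.28, -0.50, -0.10, 0.33 and 0.66 (edgeR adjusted p = 0.440, 0.580, 0.753, 0.737 and 0.189). Settings and single libraries moved these counts. With DESeq2, and with upper-quartile or Actb scaling, 1 kidney gene was called and the rise of Wt1 was lost. The endoderm genes called numbered 6 with the replicate block and 5 without a filter on low counts, all higher. Without Zfp57-/- replicate 1, and also without replicate 2, 5 crest genes and 1 kidney gene were called. Without wild-type replicate 1, 5 somite genes were called, and without wild-type replicate 2, 8 endoderm genes were called, 6 higher and 2 lower. The part of these tissues in the values of the patterning factors was not tested.

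**Figure D3:**
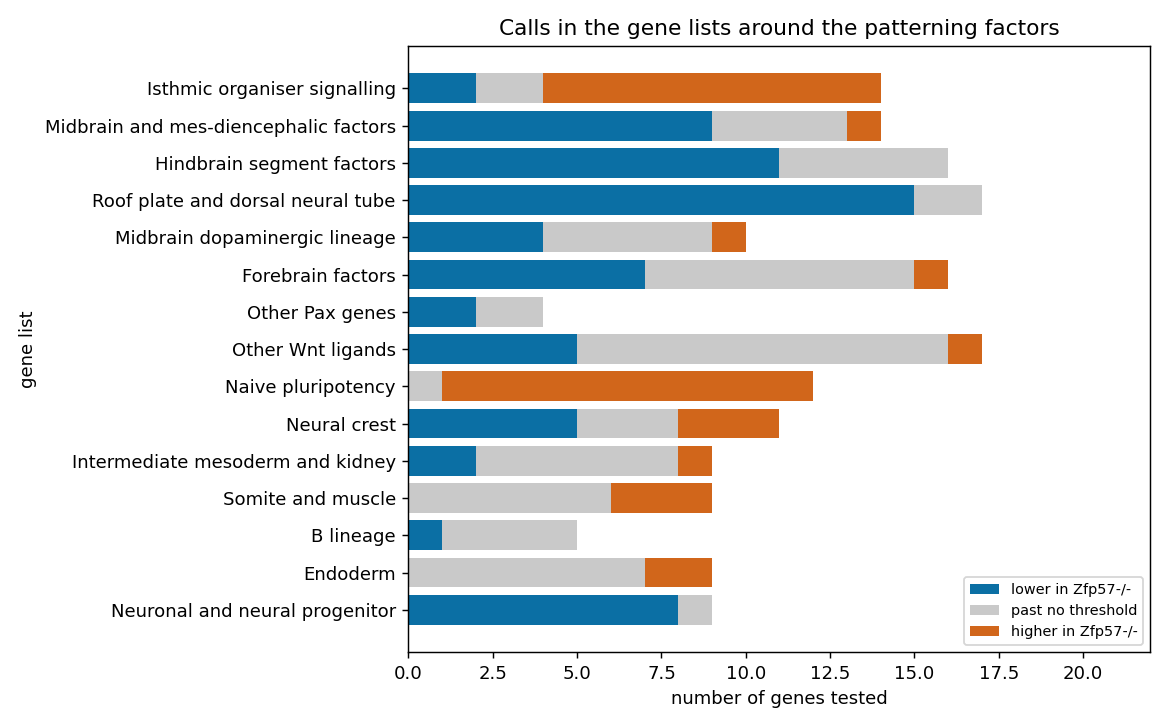
Number of genes tested in each of the 15 lists, with the 10 patterning factors left out. Blue genes were lower and orange genes higher in Zfp57-/- cells by edgeR's test, and grey genes passed no threshold. The roof plate list has 15 lower of 17, the isthmic signalling list 10 higher of 14 and the naive pluripotency list 11 higher of 12.

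Within 100 kb of the 10 genes lay 49 annotated genes, of which 24 were tested, 5 were lower and 2 higher. These 7 of 24 are about the share called over all genes, 27.6%. Pax3 had no annotated neighbour in this window, and for Pax2, Pax5, Pax7, Gbx2 and Lmx1a no neighbour passed the test. The 2 neighbours of En1 had too few counts to enter it. Beside Lmx1b, at 0.682 kb and on the opposite strand, C130021I20Rik had 123 and 267 counts in wild-type libraries against 12 and 7 in Zfp57-/- libraries (log2 fold change -4.34, edgeR adjusted p = 8.94e-05). Its annotated span begins at base 33641193 of chromosome 2, inside the Lmx1b window printed above. Mvb12b, 89.4 kb away, was lower by less (-0.61, edgeR adjusted p = 0.0499). Beside Wnt1, the neuronal gene Ddn (9.94 kb away, opposite strand) had 326 and 215 counts in wild-type and 0 in both Zfp57-/- libraries (edgeR adjusted p = 2.9e-05), and B130046B21Rik (13.2 kb away), which overlaps Ddn on the other strand, had 100 and 64 against 0 and 5 (edgeR adjusted p = 0.00161). Fkbp11 (61.7 kb away), a gene of protein folding, was higher (log2 fold change 0.86, edgeR adjusted p = 0.0485). Wnt10b, the Wnt gene next to Wnt1, had 44 and 10 counts in wild-type libraries against 6 and 4 in Zfp57-/- libraries and did not pass the test (log2 fold change -2.56, edgeR adjusted p = 0.0595). Beside En2, Cnpy1 was lower, as given above, and Insig1, a gene of sterol metabolism 87.0 kb away, was higher (log2 fold change 1.02, edgeR adjusted p = 0.0263). Without wild-type replicate 2, 13 neighbours were called, and without Zfp57-/- replicate 2, 4.

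Because JB1 is a hybrid, fragments over strain differences could be assigned to the maternal (JF1) or paternal (C57BL/6) allele. A share of 0.5 is balanced expression. Of the 10 genes, 7 had at least 10 allelic fragments in both wild-type libraries and were tested, and 1 of them, En2, had a biased share in wild-type cells. By the same edgeR test, with a term for each library, 23.4% of 11079 autosomal genes were biased. En2 had 41 maternal and 11 paternal fragments in wild-type replicate 1, and 116 and 41 in replicate 2. Its maternal share was 0.764 ± 0.0351 (SD, n = 2), or 0.751 over 209 pooled fragments with a 95% Wilson interval of 0.688 to 0.805 (log2 maternal over paternal 1.62, edgeR adjusted p = 7.69e-06). The 15 genes nearest to En2 with enough fragments in every library had a median share of 0.571 in wild-type cells. Without wild-type replicate 2 the call was not made (edgeR adjusted p = 0.102). The shares of Pax3, Pax5, Gbx2, Lmx1a, Lmx1b and Wnt1 lay between 0.429 and 0.539 in wild-type cells, and none of these 6 passed the test.

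The genotype difference in allelic share could be tested in 4 of the 10 genes, those with at least 10 allelic fragments in every library, and 2 passed, against 15.2% of 10091 genes. Pax3 had 159 maternal and 155 paternal fragments in wild-type replicate 1, 174 and 223 in replicate 2, 19 and 7 in Zfp57-/- replicate 1, and 19 and 6 in replicate 2. Its maternal share was 0.472 ± 0.0481 in wild-type cells against 0.745 ± 0.0207 in the Zfp57-/- line (SD, n = 2 each; difference of log2 maternal over paternal 1.70, edgeR adjusted p = 0.0052). Both alleles were lower in Zfp57-/- cells, the maternal one at 18.1 and 1.99 and the paternal one at 20.2 and 0.682 CPM. The 15 genes nearest to Pax3 also had a higher maternal share in Zfp57-/- cells, with a median of 0.643 against 0.498. Over the 51 Zfp57-/- fragments of Pax3 the Wilson interval of its share was 0.611 to 0.845, which includes that median of 0.643. A difference between Pax3 and its neighbours was not tested. For En2, the share was 0.341 ± 0.225 in Zfp57-/- cells (SD, n = 2), from 2 maternal and 9 paternal fragments in replicate 1 and 7 and 7 in replicate 2 (difference of log2 maternal over paternal -2.44, edgeR adjusted p = 0.00796). Over these 25 fragments the Wilson interval of the share was 0.202 to 0.555. The maternal allele of En2 stood at 8.08 and 0.465 and the paternal one at 2.64 and 0.841 CPM in wild-type and Zfp57-/- cells, and its 15 nearest genes had a median share of 0.511 in Zfp57-/- cells.

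Neither call held in every analysis. With DESeq2 the adjusted p was 0.0637 for Pax3 and 0.0945 for En2, and without wild-type replicate 2 the edgeR adjusted p was 0.0659 and 0.109. The Pax3 call was also lost without Zfp57-/- replicate 2 (edgeR adjusted p = 0.0587), and the En2 call without wild-type replicate 1 (0.0535) or without Zfp57-/- replicate 1 (0.272). For Gbx2 the share was 0.429 ± 0.101 in wild-type cells against 0.653 ± 0.177 in the Zfp57-/- line (SD, n = 2 each), a difference of 1.10 in log2 maternal over paternal that did not pass the test (edgeR adjusted p = 0.320). It passed without Zfp57-/- replicate 2 (2.02, edgeR adjusted p = 0.0306). Around Gbx2 and En1 the 15 nearest genes moved as around Pax3, all 3 being on chromosome 1, from a median of 0.478 to 0.650 and from 0.483 to 0.644. Lmx1a, further along that chromosome, had shares of 0.533 ± 0.0470 and 0.546 ± 0.0339 (SD, n = 2 each; edgeR adjusted p = 0.958), with neighbours at 0.490 and 0.458. Pax7 had too few allelic fragments to test, 8 maternal and 0 paternal in wild-type replicate 1 and 3 and 1 in replicate 2. Its 15 nearest genes had a median maternal share that was 0.989 in wild-type cells but 0.467 in the Zfp57-/- line.

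**Figure D4:**
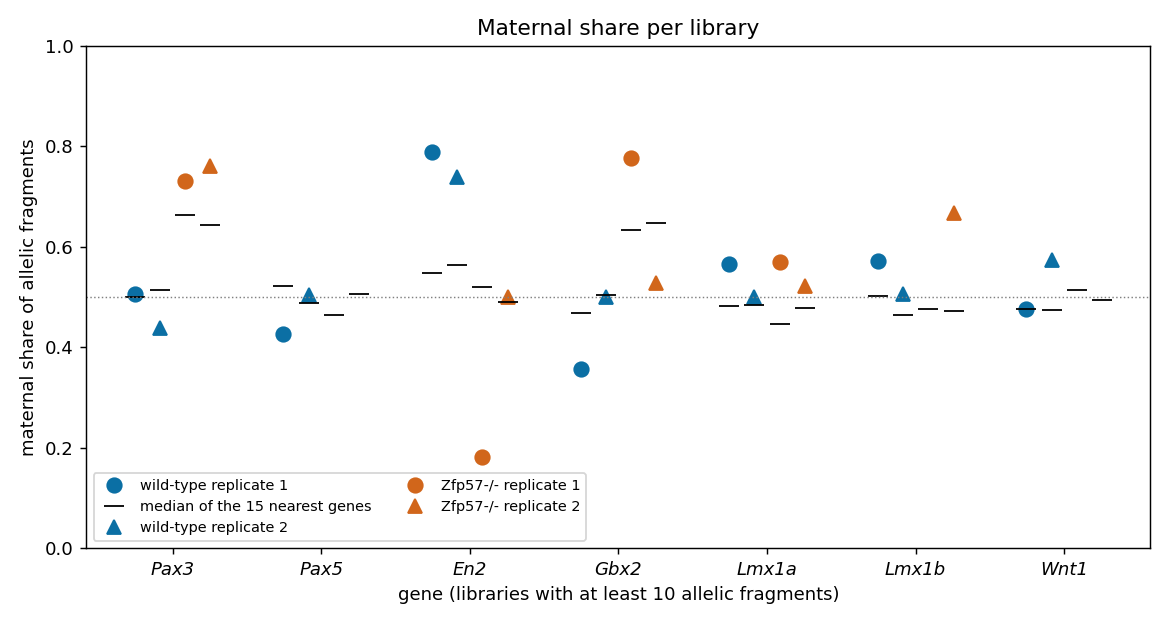
Maternal share of allelic fragments in each library, for the 7 genes with at least 10 such fragments in both wild-type libraries. Circles are replicate 1, triangles replicate 2, black dashes the median of the 15 nearest genes in that library, and the dotted line a balanced share of 0.5; Zfp57-/- libraries under 10 fragments are not drawn. The wild-type shares of En2 lie at 0.788 and 0.739 and the Zfp57-/- shares of Pax3 at 0.731 and 0.760, in each case above the dashes. The Wilson interval of the pooled Zfp57-/- share of Pax3 (0.611 to 0.845, not drawn) reaches below its dashes.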

How the data were processed

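RNA-seq tables of 2 wild-type and 2 Zfp57-/- day 12 JB1 cultures were used. Per the labels, the authors trimmed reads with Trimmomatic 0.36 and aligned them to GRCm38 with STAR 2.5.4a. They then deposited raw counts per gene of GENCODE vM20, made with featureCounts of Subread 1.6.0 on the matching strand from unique alignments. In the second table the authors deposited counts per allele, after alignment to a genome masked at strain differences and splitting of the reads. Counts were not normalized, and depth was 7663520 to 10337082 per library.

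Genes with more than 8 counts in all were compared with edgeR 4.0.16 in R 4.3.3 (TMM scaling, robust quasi-likelihood test, Benjamini-Hochberg adjustment, threshold 0.05). In the allelic fits each library had its own level and each genotype its own maternal-to-paternal ratio. Autosomal genes needed at least 10 allelic fragments in each wild-type library for the wild-type bias. For the genotype difference they needed as many in every library. CPM uses TMM-scaled library sizes. Figures were drawn with matplotlib 3.10.9. The tests were checked on simulated counts, with 200 genes changed by a log2 of 2. Changed genes were drawn from those with more counts, so genes as low as Pax2 were not covered. Bulk changes were recovered in 98.5% with edgeR and 93% with DESeq2. Genotype differences of allelic ratio were recovered in 95.5% with edgeR and 63.5% with DESeq2, with 12 and 0 false calls. The simulated spread of allelic shares between replicates was set in advance and not taken from these libraries, so these rates need not hold here. Intervals cover counting error only. Symbols were found for 54721 of 55602 gene identifiers.

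The 10 genes and the lists were chosen with earlier results of these data known. From each list, up to 3 called genes per direction and the first gene not called were named, by mean CPM, and neighbours past the threshold within 100 kb, up to 2 per factor. D130058E05Rik, B130046B21Rik, Wnt10b, Fgf8, Fgf17, Fgf18 and genes given only as at 0 or 1 count were named in addition, after their values were seen. Alternatives were DESeq2 1.42.0, its size factors, upper-quartile and Actb scaling, other filters and thresholds, a replicate block, and each library left out. Leaving out a library leaves 1 sample in a genotype, which is then assumed to vary like the other genotype. Values of a few genes that these rules name are not reported here.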

Additional observations from a re-analysis of the deposited data

Results flagged for a closer look

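The allelic share of Pax3 and of En2 differed between the genotypes by edgeR's test of the difference itself. Neither call held with DESeq2 (adjusted p = 0.0637 for Pax3 and 0.0945 for En2). Each was also lost when some single libraries were left out, as given above. The Zfp57-/- cells are a single line, so line and genotype cannot be told apart. For Pax3 the difference of log2 maternal over paternal, Zfp57-/- minus wild-type, was 1.70 (edgeR adjusted p = 0.0052), with the maternal share higher in 2 of 2 Zfp57-/- libraries than in either wild-type library, from 51 allelic fragments in the Zfp57-/- libraries together. For En2 it was -2.44 (edgeR adjusted p = 0.00796), with the maternal share lower in 2 of 2 Zfp57-/- libraries, from 25 allelic fragments. The medians of their 15 nearest genes were 0.498 and 0.643 at Pax3 and 0.571 and 0.511 at En2, in wild-type and Zfp57-/- cells.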

How the results depend on the processing

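No call of a patterning factor reversed. Of the 10 patterning factors, 6 to 10 were called over the alternatives, and 8 of the 9 tested with the stricter filter. Medians of the kidney list (0.03 without Zfp57-/- replicate 2) and the B lineage list (-0.50 without Zfp57-/- replicate 2, -1.60 with the stricter filter, where 2 genes were tested) changed sign. The genes called among all genes numbered 3480 with Actb scaling and 2901 at an adjusted p under 0.01, and 2756 to 10005 with a library left out. The neighbours called numbered 11 with the replicate block and 4 at an adjusted p under 0.01, and 4 to 13 with a library left out. The patterning factors biased in wild-type cells numbered 0 to 1 with a library left out. Those with a genotype difference of allelic share numbered 1 of 2 tested with at least 20 allelic fragments, where fewer genes were tested, 0 with DESeq2 on alleles, and 0 to 2 with a library left out. At an unadjusted p under 0.05, 2 of the 4 differed with DESeq2, and also with edgeR without wild-type replicate 2, where 1 of 7 was biased in wild-type cells. The cause of these changes was not tested. The replicate numbers are not said to pair the samples. Differences between replicates correlated at 0.188 over 13224 genes between the genotypes, and a model with replicate block called 6984 genes and all 10 patterning factors, Lmx1a included (edgeR adjusted p = 0.0380). It changed no other call among the 10, and on alleles it called En2 and the same number of differing factors, 2. Depth limits Pax2 and Wnt1, whose Zfp57-/- levels rest on 2 and 1 fragments, and the allelic shares of Pax2, Pax7 and En1, which have 9, 12 and 12 wild-type fragments.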

Other observations

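Among the wild-type libraries, several patterning factors differed between replicates 1 and 2. En2, Gbx2, En1, Pax5 and Lmx1b were 2.33, 2.19, 1.85, 1.66 and 1.59 times higher in replicate 2 by CPM. Wnt1, Lmx1a and Pax7 were at 0.848, 0.801 and 0.954 of their replicate 1 level, Pax2 at 0.496, from 14 and 9 counts, and Pax3 at 1.15. The summed level of the endoderm list was 359 CPM in replicate 1 and 529 CPM in replicate 2. These are values of 2 libraries and were not tested.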
